A study of Mus musculus with 4 samples.

Results

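The Bcl2 family decides at the mitochondrion whether a stressed lymphocyte lives, and 10 of its genes were followed here in activated and resting regulatory T cells (Treg, CD4+ lymphocytes marked by the transcription factor Foxp3 that restrain immune responses). The genes were taken by symbol: the survival genes Bcl2, Bcl2l1, Mcl1 and Bcl2a1b, the BH3-only death genes Bcl2l11, Bid, Bbc3 and Pmaip1, and the effectors Bax and Bak1. All 10 matched an Ensembl identifier among the 38924 of the deposited count table, and all 10 were among the 14235 genes with enough counts to test. Treg had been sorted from mouse spleen, and RNA sequencing covered 2 libraries of activated and 2 of resting Treg, which the design text describes as coming from independent animals. Both groups carry the same printed surface marker gate within CD4+Foxp3+ cells, and no treatment is named for either. The labels give no strain, genotype or age and do not say how Foxp3+ cells were recognised. By its title the study is about how much Foxo1, a transcription factor, is active in Treg, and the comparison asks how these populations differ in their transcripts.

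Survival proteins of the family (BCL2, BCL-XL from Bcl2l1, MCL1 and A1 from Bcl2a1b) sit on the mitochondrial outer membrane and hold the effectors BAX and BAK in check. BH3-only proteins (BIM from Bcl2l11, BID, PUMA from Bbc3 and NOXA from Pmaip1) bind the survival proteins or the effectors, and free or activated effectors form pores that release cytochrome c. Treg are known to depend on MCL1 and to be held in number by BIM, and cytokines that signal through STAT5 are known to sustain their survival genes.

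Because Bcl2l11 and Bbc3 are textbook targets of Foxo transcription factors, the bases before their start sites are shown for the letters that Foxo proteins bind. The RefSeq table (GRCm38.p6) held 14 promoter windows for 9 of the members. The 250 bases before each start were searched on both strands for GTAAACA, and 2 of the 14 windows held it, 1 of 2 for Bcl2l11 and 1 of 3 for Bbc3. The same letters occurred in 3.17% of all 32851 windows of that length in the table. The window of the first Bcl2l11 start lies at chr2:128125788-128126037 on the plus strand (GRCm38.p6) and overlaps 0 annotated exons. The Bbc3 stretch lies at chr7:16310083-16310112 on the plus strand (GRCm38.p6), before the second of the Bbc3 starts. Capitals mark the match, which ran from 227 to 221 bases before the start in Bcl2l11 and from 167 to 161 bases before it, on the opposite strand, in Bbc3.
Bcl2l11: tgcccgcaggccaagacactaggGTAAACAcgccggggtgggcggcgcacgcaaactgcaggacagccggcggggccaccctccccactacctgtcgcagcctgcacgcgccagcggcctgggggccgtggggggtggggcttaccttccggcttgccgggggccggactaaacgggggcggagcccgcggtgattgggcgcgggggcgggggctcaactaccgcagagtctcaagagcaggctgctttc
Bbc3: tctggcgggttTGTTTACaaacaatggggt
The STAT letters TTCNNNGAA occurred in 0 of the 14 windows and in 7.02% of all windows. A form of the NF-kB motif occurred in 2 of the 14, 1 of Bcl2l1 and 1 of Bbc3, and in 3.9% of all windows. These matches are descriptions of letters in a short window, and no binding was measured here.

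Library totals lay between 20282062 and 31851982 counts, and the members had 20 to 9238 counts in a library. The count columns were assigned by their headings alone, which give the group and no usable replicate number, and were not matched by value to the numbered columns of the log2 table. The libraries are called activated A, activated B, resting A and resting B, and the letters are only names. Values are CPM (counts scaled to a common library size), adjusted between libraries by trimmed mean of M values (TMM). As a check of the labels, Ccr7 and S1pr1 were lower and Cd44, Klrg1 and Icos higher in both activated libraries than in both resting ones. Foxp3 was at 37.5 and 36.7 CPM in activated and 38.8 and 35.1 CPM in resting libraries. Markers of dendritic cells moved with the groups, while lists of other cells were mixed or differed more between libraries A and B. All 7 plasmacytoid dendritic cell markers were higher in both activated libraries, with sums of 1039.6 and 343 CPM in the activated libraries A and B against 127 and 145 CPM in the resting libraries A and B. All 6 conventional dendritic cell markers were higher too, with sums of 79.7 and 28.6 CPM in activated libraries against 10.9 and 7.51 CPM in resting libraries, where Batf3 and Clec9a were at 0 in a resting library each. The 7 macrophage and monocyte markers summed to 480.5 and 61.8 CPM in the activated libraries A and B, against 399 and 12.8 CPM in the resting libraries A and B. Of the 6 NK and CD8 T cell markers, 4 were higher and 1 lower in both activated libraries, with sums of 189 and 219 CPM in activated libraries against 63.1 and 140.5 CPM in resting libraries, where Ncr1 was at 0. Of the 6 B cell markers, 1 was higher (Cd79b) and 3 were lower, with sums of 65.9 and 89.6 CPM in activated libraries against 43.0 and 62.2 CPM in resting libraries. In bulk libraries, a lower share of cells that hold a transcript and less transcript per cell cannot be told apart.

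CPM of Bcl2, Mcl1 and Bcl2l11 were lower, and those of Bcl2a1b higher, in both activated libraries than in both resting ones; in the other 6 members the groups overlapped. Groups were thus apart in 4 of 10 members, where 37.2% of all genes tested were apart, and a share of this size is near the background. By direction, 3 members were lower, against 17.4% of all genes, and 1 was higher, against 19.8%. By edgeR's quasi-likelihood test with Benjamini-Hochberg adjustment over all genes, 0 of 10 members passed an adjusted p of 0.05, and over all genes 0 passed (0%). At an unadjusted p under 0.05 edgeR counted 3 of 10 members (8.91% of all genes), 2 lower (2.61%) and 1 higher (6.3%). DESeq2 called 1 member lower (0.845% of its 13959 genes with an adjusted p) and 0 higher (2.32%). The called member was Bcl2l11. The median log2 fold change was 0.085 over the members and -0.0072 over all genes tested. The members' median was between 0.042 without activated B and 0.36 without resting B. With 2 libraries against 2, an exact permutation test of a single value cannot go below p = 0.333, so none was run.

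**Figure D1:**
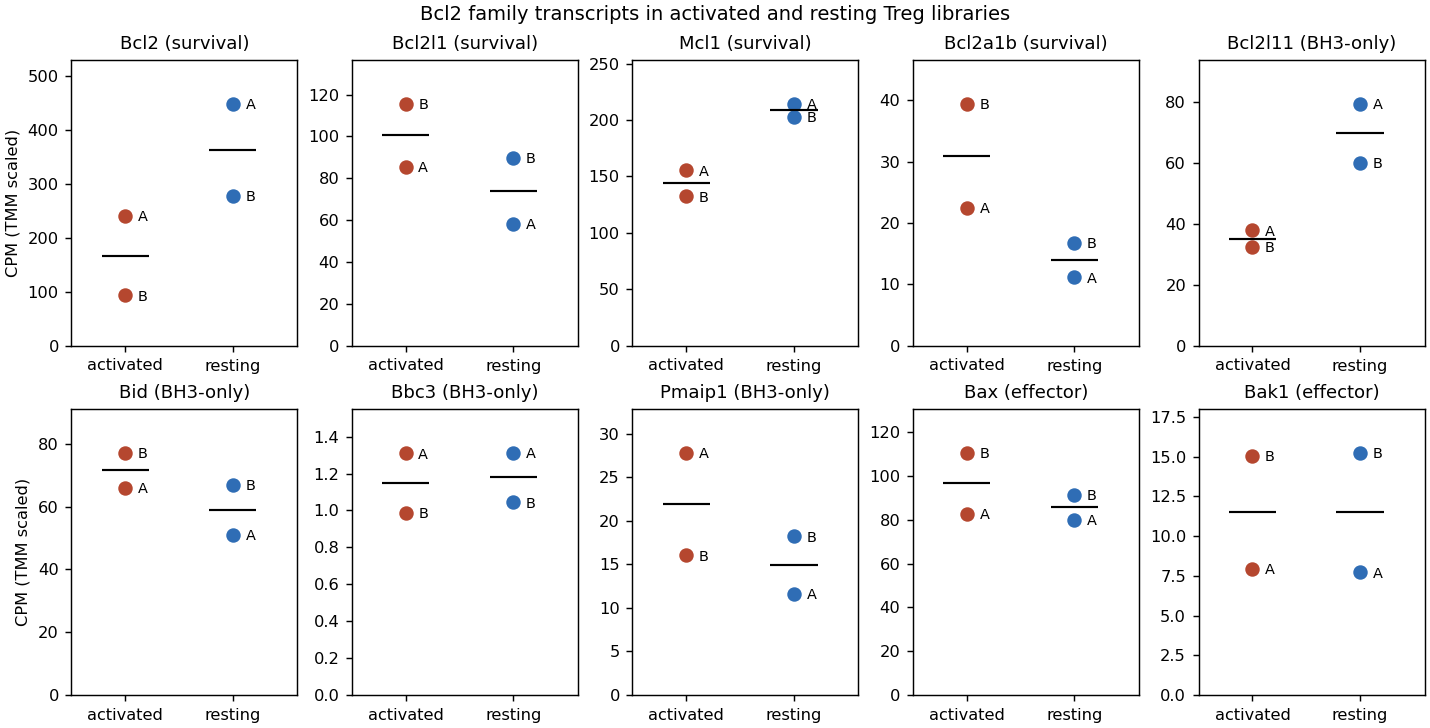
TMM-scaled CPM (vertical axes, each from 0) of the 10 members in the activated (red) and resting (blue) libraries, with A and B naming the libraries and lines at the group means (n = 2). Bcl2, Mcl1 and Bcl2l11 lie lower in both activated libraries, Bcl2a1b lies higher, and the libraries of the other members overlap between groups.

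Bcl2, the founding survival gene of the family, was at 241 CPM in activated A and 93.6 CPM in activated B, against 449 CPM in resting A and 278 CPM in resting B. Both activated libraries were below both resting ones, with activated A just under resting B and activated B far under all others. The log2 fold change was -1.12 ± 0.50 (SE), with a 95% interval from -2.40 to 0.16 and an edgeR adjusted p of 0.652. Activated A and B differed by 1.36 on the log2 scale, more than the group means did. Without activated A the log2 fold change was -1.95, and without activated B it was -0.60. The difference in Bcl2 was thus smaller than the spread between the activated libraries, though larger than the 0.69 between the resting ones. On the authors' regularized log2 scale, Bcl2 was at 12.53 and 11.28 in activated replicates 1 and 2, against 13.37 and 12.74 in resting replicates 1 and 2. Activated Treg were thus lower at each replicate number. Bcl2 spans chromosome 1 from 106538178 to 106714274 on the minus strand (mm10, GENCODE M21).

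Mcl1, the short-lived survival gene on which Treg depend, was at 156 and 132 CPM in activated libraries A and B, against 214 and 203 CPM in resting A and B. The libraries of each group were close together and the groups were clear of each other. Group means were 144 ± 16.4 CPM in activated and 209 ± 8.15 CPM in resting Treg (SD, n = 2 each). The log2 fold change was -0.53 ± 0.18 (SE), with an interval from -0.98 to -0.085, an unadjusted edgeR p of 0.0281 and an adjusted p of 0.466. DESeq2 gave an adjusted p of 0.224. Mcl1 was 1 of 3 members whose difference between groups was larger than the difference between libraries in either group.

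Bcl2a1b encodes A1, a survival protein that NF-kB is known to induce in lymphocytes and myeloid cells. It was at 22.5 CPM in activated A and 39.4 CPM in activated B, against 11.1 CPM in resting A and 16.8 CPM in resting B. Both activated libraries lay above both resting ones, and activated B stood highest. The log2 fold change was 1.14 ± 0.37 (SE), with an interval from 0.19 to 2.10, an unadjusted edgeR p of 0.0275 and an adjusted p of 0.462. DESeq2 gave an adjusted p of 0.148. Without activated B the log2 fold change was 0.68. Mouse chromosome 9 carries several near-identical Bcl2a1 copies, and the treatment of reads that match several of them is not stated. The value may thus hold reads of other copies or lack reads of this one. Bcl2a1c had 2 counts in activated A and 0 in the other libraries. No identifier of the count table matched Bcl2a1a or Bcl2a1d, so these copies could not be examined. Dendritic cell markers were higher in the same libraries, though their sums were larger in activated A and Bcl2a1b was larger in activated B. The summed NK and CD8 T cell markers and the summed B cell markers ordered the 4 libraries as Bcl2a1b did, with activated B highest, then activated A, resting B and resting A. The part of any of these cells in the Bcl2a1b result was not tested.

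Bcl2l1, which encodes BCL-XL, was at 85.4 and 116 CPM in activated libraries A and B, against 58.4 and 89.7 CPM in resting A and B. Activated A was below resting B, so the groups overlapped. The log2 fold change was 0.44 ± 0.28 (SE), with an interval from -0.29 to 1.17 (edgeR adjusted p = 0.833). It ranged from 0.16 without resting A to 0.77 without resting B, so a difference was not shown at this replication.

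Bcl2l11 encodes BIM, the BH3-only protein that removes lymphocytes when cytokine support ends. It was at 37.9 and 32.5 CPM in activated libraries A and B, against 79.6 and 60.1 CPM in resting A and B. Both activated libraries were close together and well below both resting ones, with a gap of -0.67 on the log2 scale from the lower resting to the higher activated library. Group means were 35.2 ± 3.82 CPM in activated and 69.9 ± 13.8 CPM in resting Treg (SD, n = 2 each). The log2 fold change was -0.99 ± 0.22 (SE), with an interval from -1.56 to -0.41. By DESeq2 Bcl2l11 fell, with an adjusted p of 0.0174. By edgeR the unadjusted p was 0.00669 and the adjusted p was 0.328, and in each fit that left out a library the log2 fold change stayed between -1.19 and -0.78. By size of change Bcl2l11 ranked 302 from the lowest among the 14235 genes tested and Bcl2 ranked 220. Bcl2l11 spans chromosome 2 from 128126038 to 128162547 on the plus strand (mm10, GENCODE M21), and the Foxo letters printed above lie just before it.

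The other BH3-only genes did not separate the groups. Bid, which links death receptors to the mitochondrion once a caspase has cleaved its protein, was at 66.0 and 77.1 CPM in activated libraries A and B, against 51.1 and 66.9 CPM in resting A and B. Its log2 fold change was 0.28 ± 0.21 (SE), with an interval from -0.27 to 0.82. Pmaip1, whose protein NOXA binds MCL1, was at 27.8 and 16.0 CPM in activated libraries A and B, against 11.6 and 18.2 CPM in resting A and B. Activated A was the highest and activated B was below resting B, and the log2 fold change of 0.55 ± 0.38 (SE) became 0.11 without activated A. Plasmacytoid dendritic cell markers were also highest in activated A, and their part in the Pmaip1 value was not tested. Bbc3, a p53 and Foxo target that encodes PUMA, was near the detection limit. It had 40 and 20 counts in activated A and B, against 27 and 32 counts in resting A and B, or 0.987 to 1.31 CPM. Its log2 fold change of -0.03 ± 0.52 (SE) had an interval from -1.36 to 1.30, which includes 2-fold changes in either direction, so a difference was not detectable at this depth.

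Bax and Bak1 encode the pore-forming effectors. Bax was at 82.8 and 111 CPM in activated libraries A and B, against 80.2 and 91.4 CPM in resting A and B, with a log2 fold change of 0.17 ± 0.21 (SE) and an interval from -0.37 to 0.72. Bak1 was at 7.95 and 15.1 CPM in activated libraries A and B, against 7.73 and 15.2 CPM in resting A and B. Its group means of 11.5 ± 5.02 CPM in activated and 11.5 ± 5.31 CPM in resting Treg (SD, n = 2 each) were close, while libraries A and B differed by -0.92 in activated and -0.98 in resting Treg on the log2 scale. The interval of its log2 fold change ran from -1.23 to 1.23. The libraries with more Bak1 were also those with more proliferation transcripts: Mki67, Top2a, Ccnb1 and Cdk1 summed to 203 and 378 CPM in activated libraries A and B, against 126 and 580.02 CPM in resting A and B. The macrophage and monocyte sums given above ran the other way, and the part of either in Bak1 was not tested.

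**Figure D2:**
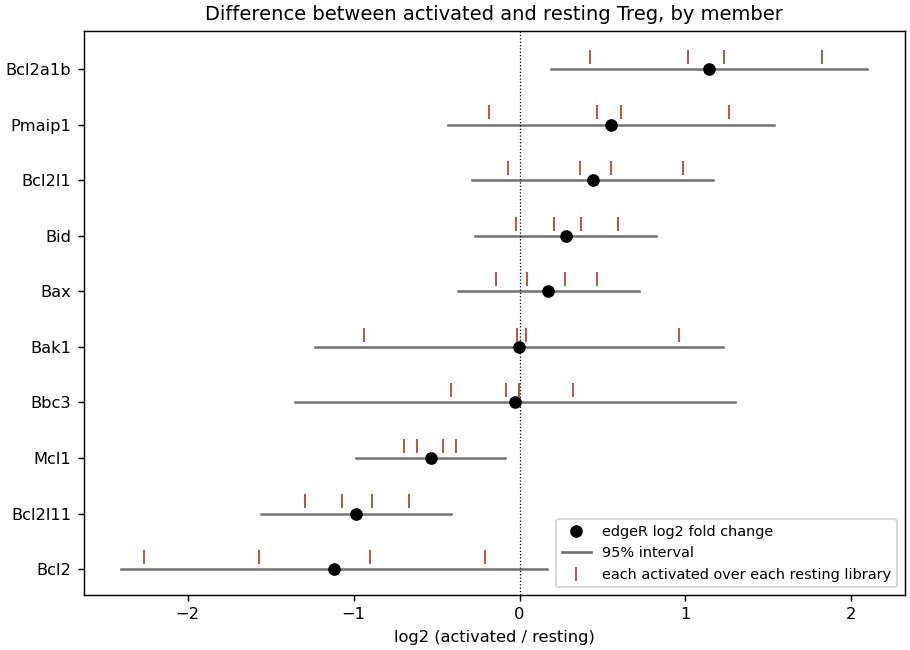
Log2 of activated over resting (horizontal axis) for each member, with the edgeR estimate (black point), its 95% interval (grey line) and the ratio of each activated to each resting library (red ticks, from CPM). The intervals of Bcl2l11, Mcl1 and Bcl2a1b leave out 0 before any adjustment, and the ticks of Bcl2 spread most among the members that kept to one side of 0.

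In 7 of 10 members (70%) the larger difference between libraries of a group exceeded the log2 fold change. So it did for 73.6% of all genes tested, where 0.1 CPM was added before taking log2, which was not done for the members.  The regularized log2 values deposited by the authors come from the same libraries, so they are not independent support. Their columns carry replicate numbers, and they gave the same separations. There too the groups were apart for 4 of 10 members, 3 lower and 1 higher, against 37.3% of all genes tested. Bcl2l11 was at 9.90 and 9.71 in activated replicates 1 and 2, against 10.88 and 10.52 in resting replicates 1 and 2, on that log2 scale. Bcl2a1b was at 9.09 and 9.82 in the activated replicates, against 8.22 and 8.74 in the resting ones. Limma on these values gave an unadjusted p of 0.00607 for Bcl2l11, 0.0199 for Mcl1, 0.0326 for Bcl2a1b and 0.0531 for Bcl2. The limma p adjusted over all genes was 0.280 for Bcl2l11, 0.373 for Mcl1, 0.440 for Bcl2a1b and 0.528 for Bcl2. With the replicate number added to the fit as a block, the limma adjusted p was 0.00149, 0.0119, 0.00373 and 0.0007 for these genes in that order. That block rests on a shared number alone, since the design text describes independent animals.

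To compare levels between members, counts were divided by the joined length of all annotated exons and scaled to TPM. This corrects for library size, and for gene length only as far as the transcripts present hold all these exons. The length was 9157 bases for Bcl2 and 817 bases for Bcl2a1b, so the order of the members depends on it. In activated Treg, Bax had the highest level of the members, at 159.5 and 189.8 TPM in A and B. Mcl1 came next at 138 and 105 TPM, and Bcl2a1b at 83.5 and 130.4 TPM overlapped it. Bcl2l1 (56.6 and 68.1 TPM), Bid (56.4 and 58.7 TPM) and Bcl2 (79.8 and 27.6 TPM) followed without separation, and the other 4 members were at or below 30.9 TPM. In resting Treg the order began with Mcl1 at 179 and 159 TPM in A and B. Bax, at 145 and 155 TPM, came next, and Bcl2, at 139.7 and 81.4 TPM, was close to it in resting A. Bcl2a1b (38.8 and 55.0 TPM), Bcl2l1 (36.3 and 52.4 TPM) and Bid (41.0 and 50.5 TPM) overlapped one another. Bbc3 was the lowest in every library, between 1.26 and 1.87 TPM.

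Summed over the 4 survival members, TPM overlapped between the groups, while the make-up of the sum differed. The sum was 358 and 331 TPM in activated A and B, against 394 and 348 TPM in resting A and B. Bcl2a1b made up 23.3% and 39.4% of it in activated A and B, against 9.86% and 15.8% in resting A and B. Bcl2l1 made up 15.8% and 20.6% in activated libraries, against 9.22% and 15.1% in resting libraries. Bcl2 made up 22.3% and 8.35% in activated libraries, against 35.5% and 23.4% in resting libraries, and Mcl1 38.6% and 31.6%, against 45.4% and 45.7%. For all 4 genes the shares of the activated libraries lay on one side of those of the resting libraries, though by a narrow margin in Bcl2 and Bcl2l1. The Bcl2a1b share carries the uncertainty of its near-identical copies. These shares restate the levels above within each library and were not tested. Within a library a higher share of one gene lowers those of the others, so the 4 separations are not independent. No share over other sets of genes was computed beside them.

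Among the 4 BH3-only members Bid held the largest share of TPM in every library, from 49.3% to 67.7%. Bcl2l11 made up 13.8% and 12.6% in activated A and B, against 34.0% and 22.4% in resting A and B. Pmaip1 made up 29.9% and 18.3% in activated libraries, against 14.6% and 19.9% in resting libraries, and overlapped. The BH3-only sum was 104 and 86.8 TPM in activated A and B, against 83.1 and 89.8 TPM in resting A and B, and the effector sum 169.6 and 207 TPM, against 154 and 172 TPM; both overlapped.

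**Figure D3:**
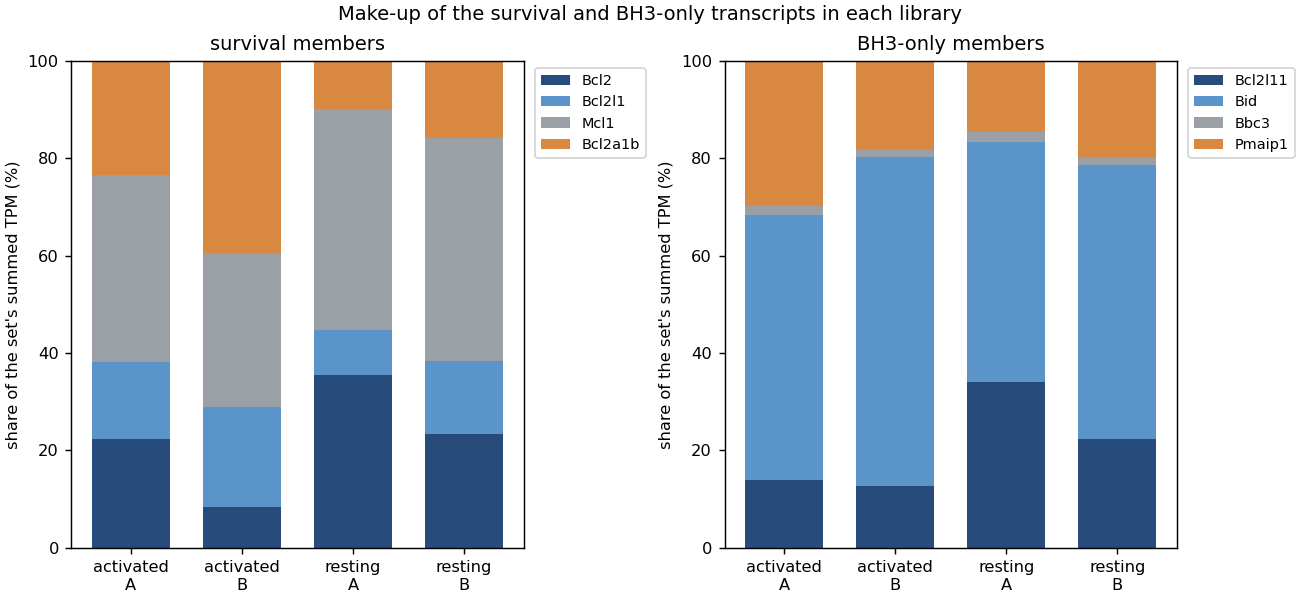
Share of the summed TPM (vertical axis, percent) held by each of the 4 survival members (left) and the 4 BH3-only members (right) in each library. Bcl2a1b holds 23.3% and 39.4% of the survival sum in the activated libraries against 9.86% and 15.8% in the resting ones, and Bcl2l11 holds less of the BH3-only sum in both activated libraries.

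Ratios of counts within a library do not depend on how libraries are scaled. Bcl2 and Bcl2l11 were both lower in activated Treg, and their ratio overlapped, at 6.35 and 2.88 in activated A and B, against 5.64 and 4.62 in resting A and B. The difference in mean log2 ratio, activated minus resting, was -0.26 and turned to 0.31 without activated B. The ratio of Bcl2l1 to Bcl2l11 was higher in both activated libraries, at 2.25 and 3.55, against 0.734 and 1.49 in resting A and B. Mcl1 to Bcl2l11 was at 4.10 and 4.07 in activated A and B, against 2.69 and 3.37 in resting A and B. Mcl1 to its partner Pmaip1 was at 5.59 and 8.24 in activated A and B, against 18.4 and 11.1 in resting A and B. In each of these last 3 ratios the groups did not overlap. Bcl2l1 to Bcl2 was at 0.355 and 1.24 in activated A and B, against 0.130 and 0.323 in resting A and B, again without overlap. Groups were apart in 5 of 8 ratios computed, and no share over other gene pairs was computed to set beside this count. All but the ratio of Bcl2 to Bcl2l11 were chosen after the levels had been seen. Each ratio that was apart held a member whose own CPM were apart, so these separations largely restate the levels above.

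In 5 lists of related family and pathway genes, 0 genes passed an adjusted p of 0.05 over all genes by edgeR or DESeq2. The counts below stand against 19.8% of all genes tested that were higher and 17.4% that were lower in both activated libraries, and 6.3% higher and 2.61% lower at an unadjusted edgeR p under 0.05. Of 10 further Bcl2 family genes tested, 3 were higher and 2 lower in both activated libraries, and the median log2 fold change was 0.14, which turned to -0.059 without activated B and to -0.016 without resting A. At an unadjusted edgeR p under 0.05, 1 was higher: Bcl2l15, at 1.67 and 2.27 CPM in activated libraries A and B, against 0.389 and 0.783 CPM in resting A and B. Bcl2l2, the survival gene for BCL-W, was at 3.80 and 3.06 CPM in activated libraries, against 0.826 and 1.96 CPM in resting libraries, with an edgeR adjusted p of 0.651. Bcl2l13 was at 30.6 and 32.6 CPM in activated libraries, against 41.4 and 36.4 CPM in resting libraries. The most abundant by CPM, Bnip3l, a mitophagy receptor, was at 181 and 167 CPM in activated libraries, against 214 and 182 CPM in resting libraries. Bad, a BH3-only gene, overlapped, at 31.4 and 43.4 CPM against 28.3 and 37.8 CPM. Bcl2l10, Bok and Hrk had 0 to 8 counts in a library and were not tested.

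Of 18 genes of the mitochondrial death pathway, 2 were higher and 2 lower in both activated libraries, 0 reached an unadjusted edgeR p under 0.05, and the median log2 fold change was -0.03, which turned to 0.024 without activated A. Htra2, a mitochondrial protease that blocks inhibitors of caspases, was at 19.5 and 21.1 CPM in activated libraries A and B, against 11.7 and 15.4 CPM in resting A and B. The executioner caspase gene Casp6 was at 56.9 and 66.9 CPM in activated libraries, against 71.4 and 86.9 CPM in resting libraries. Birc3, a ubiquitin ligase of NF-kB signalling, was at 178 and 158 CPM in activated libraries, against 203 and 189.6 CPM in resting libraries. The channel genes Vdac1 and Vdac2, at log2 fold changes of -0.07 ± 0.21 and -0.08 ± 0.18 (SE), overlapped.

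In the death receptor pathway 2 of 9 genes were lower at an unadjusted edgeR p under 0.05 and 0 were higher, against 2.61% and 6.3% of all genes tested. Fas, the death receptor, was at 108 and 95.6 CPM in activated libraries A and B, against 146 and 148 CPM in resting A and B. Casp8, the caspase that Fas engages and that cleaves BID, was at 243 and 177 CPM in activated libraries A and B, against 347 and 322 CPM in resting A and B. Both activated libraries were below both resting ones in each gene. Their log2 fold changes were -0.53 ± 0.17 and -0.67 ± 0.22 (SE), and neither passed over all genes by edgeR (adjusted p = 0.444 and 0.453) or by DESeq2 (0.206 and 0.164). Tnfrsf10b, the TRAIL receptor, was at 5.99 and 7.45 CPM in activated libraries, against 3.50 and 4.99 CPM in resting libraries. Cflar, which encodes the caspase-8 inhibitor FLIP, was at 169 and 119.7 CPM in activated libraries, against 206 and 148 CPM in resting libraries, and Tradd, a receptor adaptor, was at 56.7 and 88.4 CPM, against 49.7 and 70.8 CPM; both overlapped.

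Of 17 known upstream regulators of the members, 3 were higher and 5 lower in both activated libraries, against 19.8% and 17.4% of all genes tested. At an unadjusted edgeR p under 0.05, 2 were lower, against 2.61% of all genes. Foxo1 was at 162 and 127 CPM in activated libraries A and B, against 259.7 and 227 CPM in resting A and B (edgeR adjusted p = 0.372, DESeq2 adjusted p = 0.0615). Foxo1 and Bcl2l11 were each lower in both activated libraries, and a part of Foxo1 in the Bcl2l11 level was not tested. Bbc3, with the same letters before a start, overlapped, but at 20 to 40 counts in a library a difference was not detectable. Myc, which is known to raise Bcl2l11, was at 184 and 194 CPM in activated libraries, against 249 and 289.6 CPM in resting libraries. Foxo3 was at 41.6 and 38.8 CPM in activated libraries, against 59.1 and 50.8 CPM in resting libraries. The interleukin 2 receptor genes Il2rb, with a log2 fold change of 0.17 ± 0.25 (SE), and Il2ra, at -0.37 ± 0.19 (SE), did not pass. Il2rb overlapped, while Il2ra was lower in both activated libraries, at 921 and 719 CPM, against 1030 and 1088 CPM in resting A and B. Of 15 known modifiers of the proteins, 0 reached an unadjusted edgeR p under 0.05, 1 was higher and 2 were lower in both activated libraries, and the median was -0.11. Gsk3b and Huwe1, a kinase and a ubiquitin ligase that mark MCL1 for destruction, had log2 fold changes of -0.28 ± 0.19 and -0.36 ± 0.25 (SE). Mapk9, a stress kinase that phosphorylates BIM, was at -0.24 ± 0.19, and Dynll1, the dynein light chain that tethers BIM, at -0.12 ± 0.17 on the same scale. The kinase gene Rps6ka1, at 0.03 ± 0.23, overlapped.

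**Figure D4:**
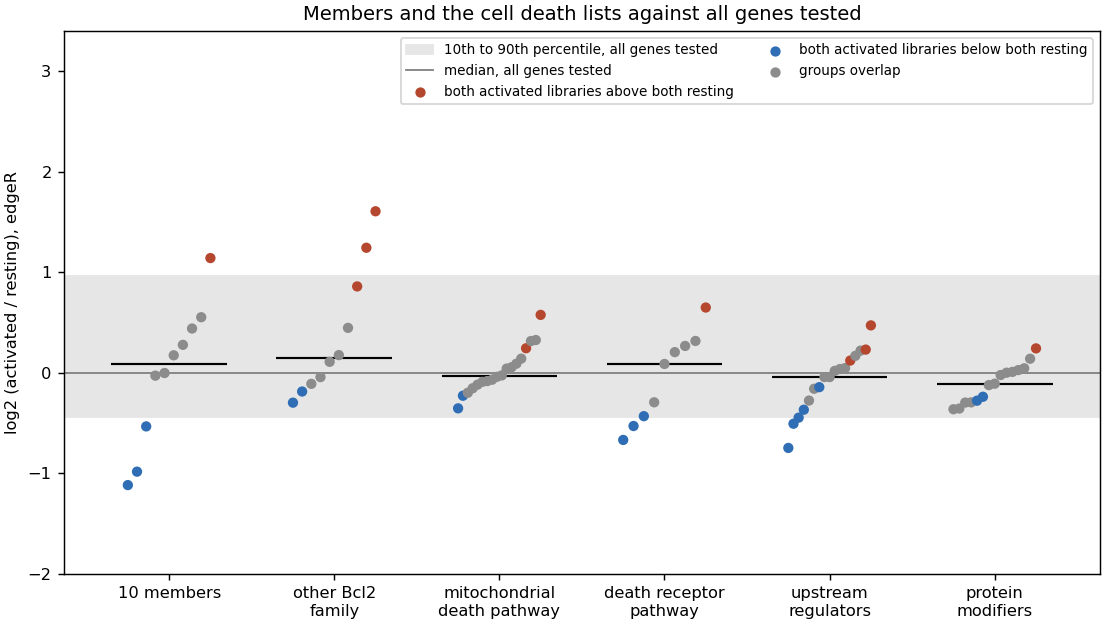
Log2 of activated over resting by edgeR (vertical axis) for the 10 members and the tested genes of 5 lists, coloured by whether both activated libraries lie above or below both resting ones. Black lines are list medians, and the grey band runs from the 10th to the 90th percentile of all genes tested (-0.44 to 0.96). Bcl2, Bcl2l11 and Mcl1 lie below that band and Bcl2a1b above it.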

How the data were processed

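RNA from 4 libraries, 2 of activated and 2 of resting mouse spleen Treg, was isolated with a column kit and made into libraries with the SMART-seq v4 low-input kit, per the labels' protocols. Such libraries are amplified by PCR without molecular identifiers, so counts are reads. The submitters' processing notes name STAR 2.4.0c, featureCounts, DESeq2 and the mm10 build, without roles. Neither the annotation release nor strand setting nor read filters are stated. Raw counts for 38924 Ensembl identifiers make up the deposited count file; a second deposited table holds the authors' regularized log2 values from DESeq2. Count headings repeat 1 replicate number in each group, so columns were assigned to groups from the headings alone; the log2 table carries both numbers, and columns were not matched between the tables by value. Symbols matched 37607 identifiers; positions and exon lengths came from GENCODE M21, and promoter windows from RefSeq.

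Genes were kept by filterByExpr (minimum count 10, total 15) and tested with edgeR 4.0.16 (R 4.3.3) on group alone: TMM scaling, quasi-likelihood F-test, prior count 2, Benjamini-Hochberg adjustment over 14235 genes, threshold 0.05. Standard errors were taken as the fold change (log2) divided by the root of F and intervals use the test's degrees of freedom, so both are approximate. DESeq2 1.42.0 and limma 3.58.1 were alternatives, with unfiltered counts, DESeq2 size factors in edgeR, limma on the log2 values, and each library left out. Procedures were tested on simulated data. The members and lists were chosen with earlier results of these data known. Named beside the members were, from each list, up to 3 genes with the smallest edgeR p and up to 2 more with the highest mean. TPM used the union of annotated exons, and ratios a prior count of 0.5. One gene of the marker lists is not reported here. The independence of the libraries rests on the design text alone.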

Additional observations from a re-analysis of the deposited data

How the results depend on the processing

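Over all genes edgeR called 0, against 852 (675 higher) with no filter on low counts, 442 (324 higher) with DESeq2 and 1552 (1027 higher) with limma on the deposited log2 values and the replicate number as a block. Leaving out a library gave 0 to 370 calls: 370 when resting A was left out, 198 when resting B was, 62 when activated B was and 0 when activated A was. Members called were 0 by edgeR, 1 by DESeq2 (Bcl2l11), 3 with no filter (Bcl2, Bcl2l11 and Bcl2a1b), 5 with the replicate block (Bcl2, Mcl1, Bcl2l11, Bcl2l1 and Bcl2a1b) and 0 whichever library was left out. List genes called were 0, except 1 with no filter and 4 with the block. The libraries share only a number: the labels describe independent animals, though replicate 1 minus replicate 2 correlated between groups with r = 0.65 across genes. The cause of these differences was not tested.

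Bcl2, Bcl2l11, Mcl1, Bcl2a1b, Bcl2l1, Bid and Pmaip1 kept their direction in every setting run. Adding Bcl2a1c to Bcl2a1b kept its direction and call. Bcl2a1c had only 2 counts, all in activated A, so this setting could not show how much the near-identical copies matter. Bax ranged from -0.056 without activated B to 0.38. Bak1, near 0, turned to 0.00059 with DESeq2 size factors, 0.00074 with DESeq2, 0.000203 on the log2 values with and without the block, 0.39 without activated A and 0.55 without resting B, with a lowest value of -0.54. Bbc3 turned to 0.015 with limma-voom, 0.14 without activated B and 0.12 without resting A, with a lowest value of -0.23. The log2 ratio of Bcl2 to Bcl2l11 ranged from -0.83 to 0.31 over fits that left out a library. Precision is limited by 2 libraries a group and, for Bbc3, by 20 to 40 counts.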
